A study of Mus musculus with 12 samples.

Results

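The genes of the cytosolic ribosome were followed in the hippocampus of 12 female mice. Members were taken by name: every non-control probe called Rpl or Rps with a number (with an optional a, l, x or y), together with Rpsa, Rplp0, Rplp1, Rplp2 and Fau. Rps6k kinases, pseudogenes and 20 neighbouring names such as Rpl22l1 and Rps3a1 fell outside. This gave 82 of the 29608 gene names on the array, measured by 189 of 39429 probes: 46 large subunit genes, 33 small subunit genes and 3 ribosomal P genes.

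Each of the strains MRL/lpr, Fn14ko and MRL/+ was represented by 4 adult mice. MRL/lpr mice lose Fas function and develop a lupus-like disease. Fn14ko mice, named Fn14koMRL in the labels, are MRL/lpr littermates labelled as knocked out for Tnfrsf12a, the TWEAK receptor Fn14, so both groups carry the Fas mutation. MRL/+ mice (strain MRL/MpJ) are the background without it and came from another supplier. Source and tissue labels give hippocampus, whereas a free-text line of the labels names cortex. Each of 6 Agilent arrays carried 2 mice of a strain, with Cy3 for odd and Cy5 for even replicates. The 2 arrays of each strain shared 1 slide and 1 scan. Slide, scan and strain therefore cannot be told apart, and Fn14ko and MRL/+ differ in supplier as well as genotype.

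Ribosomal proteins assemble with ribosomal RNA into the small subunit, which decodes the message, and the large subunit, which joins amino acids. Their messages are abundant in every cell and usually start with a run of pyrimidines (the terminal oligopyrimidine tract, TOP) that couples their translation to mTOR signalling. The P proteins Rplp0, Rplp1 and Rplp2 form the stalk of the large subunit that recruits elongation factors. They share a C-terminal tail that is the target of anti-ribosomal P autoantibodies, which have been linked to neuropsychiatric lupus.

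Probe sequences of the P genes are shown because the end of their coding sequence specifies this shared tail. Capitals mark the end of the coding sequence through the stop codon, and bases past the stop were left out. Positions are mm9 and cover the whole 60-base probe. The first Rplp0 probe lies at chr5:116013404-116013463 and the second at chr5:116013397-116013456, both on the plus strand. The Rplp1 probe lies at chr9:61761086-61761145 on the minus strand, and the Rplp2 probe at chr7:148637182-148637241 on the plus strand.
Rplp0, first probe: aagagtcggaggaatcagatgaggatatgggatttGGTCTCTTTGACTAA
Rplp0, second probe: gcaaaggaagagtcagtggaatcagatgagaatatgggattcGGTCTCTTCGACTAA
Rplp1: GGTCTTTTTGACTAA
Rplp2: acatgggatttGGCTTGTTTGATTAA

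The 2 Rplp0 probes overlap by 53 bases and differ at 5 of them, G8A, A10T, G24A, T35C and T44C, counted from 1 at the 5′ end of the first probe, with its base given first. The remaining Rplp0 probe starts 21 bases past the stop codon, and a second Rplp1 probe lies inside the coding sequence. Which Rplp0 probe matches the mouse strains was not determined here. Ribosomal protein genes have many processed pseudogenes and near-identical copies, and a 60-base probe may bind more than 1 of them, so a value is that of the probe's matching transcripts.

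RefSeq starts (GRCm38.p6) were listed for 61 of the 82 members. A run of at least 8 C or T on the sense strand, within 20 bases before to 30 bases after the start, was present in 57.4% of these members and in 21.5% of 27025 genes. On the other strand the shares were 9.84% and 24.7%. Below, the longest run is in capitals for P genes and for members with the largest differences between Fn14ko and MRL/+ described further on, Rps21 with both of its listed starts. The windows lie at chr5:115559455-115559482 (+), chr7:141447639-141447666 (+), chr2:180257367-180257394 (+), chr2:180257437-180257464 (+), chr2:39005116-39005143 (-) and chr1:39367839-39367866 (+), in the order printed.
Rplp0: ttcgggtttcgaggaccgcctggTTCTC
Rplp2: gtcagcgTCTTCCTTTCgccgccggacg
Rps21, first start: cgaggacccgCCCTCCTgcccaatagtg
Rps21, second start: caagtgagcaggtaggCCTCggtgcggg
Rpl35: ccccgCCCTTTCCTCTTTCTCTCgaacc
Rpl31: CCTCCTCgcctccccgtgacccggaagt
Among these members, Rplp2 and Rpl35 hold a run of 8 or more C or T in the printed window, whereas Rplp0, Rps21 and Rpl31 do not. The printed windows are shorter than the window used for the shares. A member without such a run here may therefore hold one there, and the marked runs of Rplp0 and Rpl31 reach a window edge.

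The arrays did not carry equal signal. On the array of MRL/lpr replicates 3 and 4, the foreground reached 1.93 and 1.73 times background. The remaining 10 mice ranged from 4.42 to 12.6. In the Cy5 channel of MRL/+ (replicates 2 and 4), 29.6% and 31.8% of spots were well above background, compared with 51.5% to 60.8% in the Cy5 channels of the other strains outside the weak array. The Tnfrsf12a probe read 2.91 to 5.08 channel medians in mice labelled Fn14ko, 3.43 to 12.9 in MRL/+ and, outside the weak array, 4.50 and 7.08 in MRL/lpr. These ranges overlap, and whether the probe lies in the deleted part is not given in the sources used here, so the probe does not check the knockout label. Choroid plexus markers were unequal as well: with MRL/lpr replicates 3 and 4 left out, 5 of 8 were higher in MRL/lpr than in each other strain, beside 6.11% of all genes against MRL/+ and 4.09% against Fn14ko. Their summed unfiltered level was 67.3 to 630 in MRL/lpr, 12.5 to 146 in Fn14ko and 14.6 to 30.2 in MRL/+, where Kcne2 and Steap1 were not well above background. In the same 10 mice, 6 of 9 striatal markers were higher in Fn14ko than in MRL/+, beside 10% of all genes. The part of these marker differences in the results below was not tested. In whole tissue, fewer cells of a type and less RNA per cell cannot be told apart.

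In all, 76 of the 82 members had a spot valid in all 12 mice (foreground at least 2 times background, no outlier flag): 42 large subunit genes, 32 small subunit genes, Rplp0 and Rplp1. Levels are background-subtracted intensities divided by the channel median of the kept spots, and are compared between mice within a gene only. The median member stood at 9.49, 10.9, 4.36 and 3.48 channel medians in MRL/lpr replicates 1 to 4. It stood at 10.3, 9.22, 9.74 and 10.2 in Fn14ko and at 8.34, 10.1, 8.06 and 9.65 in MRL/+. Only the 2 mice of the weak array stood below 8.

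**Figure D1:**
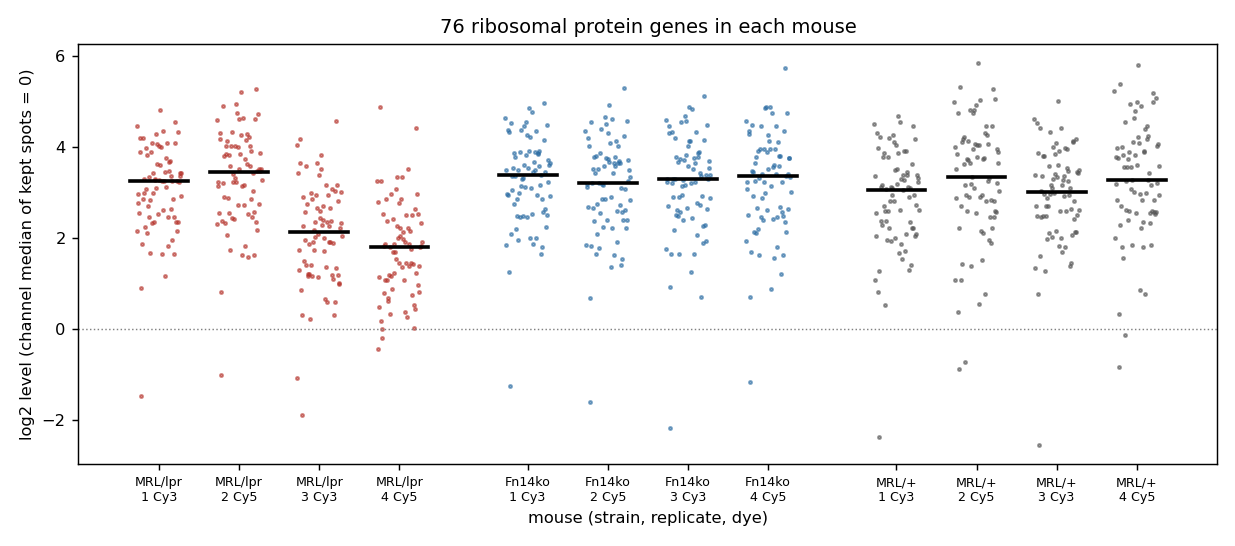
Level of 76 ribosomal protein genes (points, log2 scale, channel median at 0) in each of the 12 mice, with the median as a bar. MRL/lpr replicates 3 and 4 sit lowest, with medians of 2.13 and 1.80, whereas the other 10 mice lie between 3.01 and 3.45.

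With all 12 mice, 0 of 76 members passed an adjusted p of 0.05 (limma, Benjamini-Hochberg over 8864 genes) in any comparison. Over all genes tested, 9.17% were called for MRL/lpr against MRL/+, 3.98% for MRL/lpr against Fn14ko and 0.519% for Fn14ko against MRL/+. With array as a random block these shares were 0.079%, 0.0451% and 0%, and 0 members were called. Without that block, 16, 17 and 4 members had an unadjusted limma p under 0.05, beside 36.6%, 36.2% and 15.3% of all genes. The methods' t-test gave 3, 0 and 11 members, beside 15.8%, 13% and 16.8% of all genes. The median log2 fold change of the members was -0.66 in MRL/lpr against MRL/+, beside -0.01 for all genes. It was -0.67 against Fn14ko, beside 0.03, and in Fn14ko against MRL/+ it was 0.11, beside -0.16. The first 2 comparisons share the MRL/lpr mice, weak array included. Against MRL/+, large and small subunit genes had medians of -0.67 and -0.65.

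Members with the lowest fold changes were low in the weak array. Rpl32l read 8.65, 12.3, 1.51 and 1.20 channel medians in MRL/lpr, 11.2, 11.9, 9.41 and 10.6 in Fn14ko and 9.62, 13.5, 10.3 and 14.7 in MRL/+. Its log2 fold change was -1.67 ± 0.65 (SE) against MRL/+ and -1.53 ± 0.65 against Fn14ko, with limma adjusted p = 0.098 and 0.125. Without the weak array it was -0.035 and -0.15. Rpl37a, at -1.31 and -1.32 with 12 mice, came to -0.01 and -0.34, and Rpl29, at -1.25 against MRL/+, came to -0.20. The fold change of Rpl27a against Fn14ko was -1.16 with 12 mice and -0.28 with 10.

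Rps18, a small subunit protein, was the 1 member whose MRL/lpr mice all read below all MRL/+ mice, with 3.16, 3.33, 1.16 and 1.26 channel medians against 3.85, 6.01, 3.90 and 5.23. Such separation occurred for 11.6% of all genes. The log2 fold change of Rps18 was -1.24 ± 0.36 (limma adjusted p = 0.053, exact permutation p = 0.0286, the smallest that 4 against 4 mice allow). That permutation test treats mice as independent, although pairs of mice share an array. With 10 mice the fold change was -0.36 and its limma adjusted p 0.123.

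Leaving out the weak array brought 79 members and 17936 genes into the test, with 2 MRL/lpr mice, both from 1 array. Between Fn14ko and MRL/+, 26 of 79 members were called higher and 0 lower, whereas 10% of all genes were called higher and 11.1% lower. Between MRL/lpr and MRL/+, 8 members were higher and 0 lower, beside 6.11% and 9.61% of all genes. Between MRL/lpr and Fn14ko, limma called 0 members, beside 9.12% of all genes, and 3 had an unadjusted p under 0.05, as did 23.3% of all genes. Member medians were 0.31, 0.23 and -0.09 in this order, and those of all genes -0.07, -0.10 and -0.04. The MRL/+ mice are shared by the first 2 comparisons.

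These counts depended on how the signal was read. With the software's processed signal, which is dye-normalized within each array, 3 members were higher and 6 lower in Fn14ko than in MRL/+, beside 6.24% and 14.8% of all genes, with a median of -0.03. For MRL/lpr against MRL/+ it gave 2 higher and 15 lower, beside 8.53% and 15.9% of all genes, with a median of -0.14. The direction for the members as a group thus differed between the signals. Within Cy3 the member median in Fn14ko against MRL/+ was 0.34, with 0 genes of any kind called. Within Cy5 it was 0.28, with 20 members higher and 1 lower, beside 18.9% and 38.3% of all genes. With the spots and scaling of the 12-mouse set, these medians were 0.29 and -0.16. Both sets hold the same Fn14ko and MRL/+ mice and differ in kept spots, scaling and shared spread. Without Fn14ko replicate 4 the 26 calls fell to 6, and those over all genes to 6.34%. With array as a random block 39 members were higher, beside 35.7% of all genes called in either direction.

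**Figure D2:**
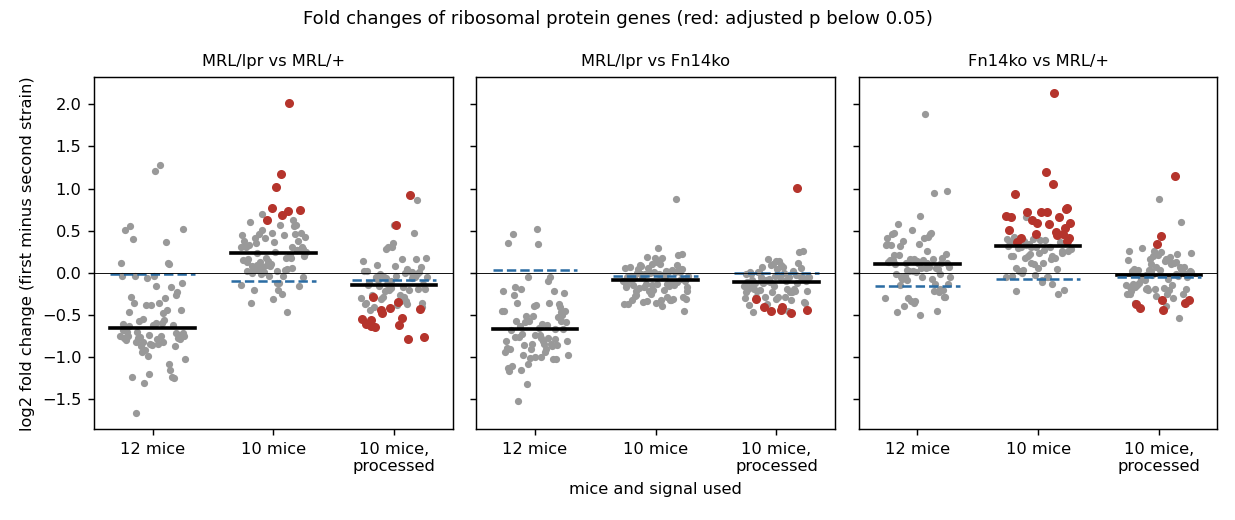
Log2 fold changes (first minus second strain) of ribosomal protein genes with 12 mice, with 10 mice (weak array left out) and with 10 mice on the processed signal. Points are genes, red where the adjusted p was below 0.05, black bars are member medians and dashed blue bars medians of all genes tested. The member median for MRL/lpr against MRL/+ goes from -0.66 to 0.23 and to -0.14.

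Rplp0, the stalk base, was lower in MRL/+ than in the other strains in the 10 mice. It read 35.5 and 42.9 channel medians in MRL/lpr, 37.2, 37.6, 39.7 and 42.3 in Fn14ko and 25.2, 25.1, 22.5 and 28.8 in MRL/+. No MRL/+ mouse reached the lowest mouse of the other strains. Its log2 fold change was 0.63 ± 0.12 in Fn14ko against MRL/+ (limma adjusted p = 0.0072) and 0.63 ± 0.14 in MRL/lpr against MRL/+ (adjusted p = 0.016). Between MRL/lpr and Fn14ko it was -0.0044 ± 0.14. With the processed signal the first pair of values became 0.20 and 0.30, with adjusted p of 0.118 and 0.070.

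In all 12 mice, Rplp0 read 9.43, 11.4, 2.01 and 1.74 channel medians in MRL/lpr, 9.36, 9.48, 9.75 and 10.6 in Fn14ko and 6.55, 9.21, 5.70 and 9.27 in MRL/+. The weak array was lowest, and Fn14ko did not overlap MRL/+, as for 12 of 76 members and 5.88% of all genes. The exact permutation p, which ignores that pairs of mice share an array, was 0.0286, but the limma adjusted p was 0.837. The Rplp0 probes differed: Fn14ko exceeded MRL/+ by 0.45 and 0.54 (log2) on the first and second probe shown above and by 0.08 on the probe past the stop codon.

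Rplp1, a stalk protein that pairs with Rplp2, read 73.8 and 117 channel medians in MRL/lpr in the 10-mouse set. It read 87.7, 99.9, 104 and 116 in Fn14ko and 73.5, 72.8, 62.7 and 76.9 in MRL/+. Fn14ko and MRL/+ did not overlap, and the MRL/lpr mice spanned both. The log2 fold change of Rplp1 was 0.51 ± 0.14 in Fn14ko against MRL/+ (limma adjusted p = 0.026) and 0.38 ± 0.17 in MRL/lpr against MRL/+ (adjusted p = 0.137). With the processed signal it was -0.26 in Fn14ko against MRL/+. On the channel scaling of the 12 mice, Rplp1 stood at 0.26 in Fn14ko against MRL/+. Its probe inside the coding sequence gave 0.51 there and the probe printed above 0.14.

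Rplp2 had 1 probe, well above background in all 12 mice but valid in 11. In the 10 mice it read 61.2 and 90.2 channel medians in MRL/lpr, 76.4, 83.1, 78.7 and 93.6 in Fn14ko and 64.3, 47.9, 79.2 and 112 in MRL/+. All 3 strains overlapped. The log2 fold changes of Rplp2 were 0.20 ± 0.23 in Fn14ko and 0.04 ± 0.28 in MRL/lpr against MRL/+, with limma adjusted p of 0.544 and 0.931.

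**Figure D3:**
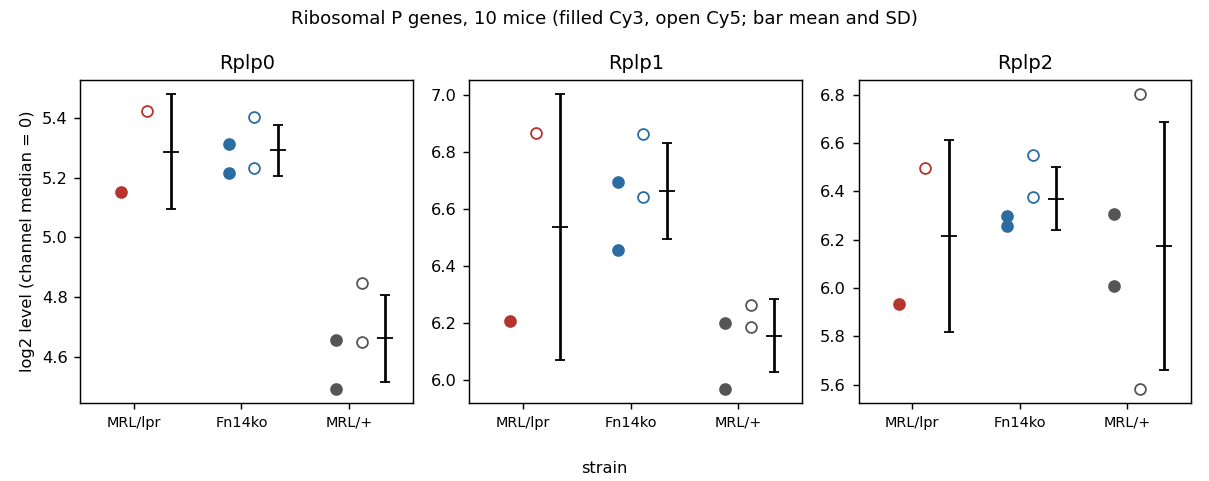
Log2 levels of Rplp0, Rplp1 and Rplp2 in 10 mice (2 MRL/lpr, 4 Fn14ko, 4 MRL/+), filled for Cy3 and open for Cy5, with mean and SD as bars. Rplp0 sits lower in MRL/+ than in the other strains, whereas Rplp2 overlaps.

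Rps21, a small subunit protein needed to mature the RNA of that subunit, had the largest difference between Fn14ko and MRL/+. In all 12 mice it read 4.30, 4.19, 2.29 and 1.60 channel medians in MRL/lpr, 4.59, 3.15, 5.62 and 4.32 in Fn14ko and 1.44, 0.6, 2.43 and 0.909 in MRL/+. Every Fn14ko mouse stood above every MRL/+ mouse. The log2 fold change of Rps21 in Fn14ko against MRL/+ was 1.88 ± 0.38 with limma adjusted p = 0.052, and it met the methods' composite criterion, as 1.06% of all genes did in that direction. In the 10 mice it was 2.13 ± 0.33 (limma adjusted p = 0.0033), called in each of 10 fits that left out a further mouse. In this comparison, here and for members below, fits without an MRL/lpr mouse keep the fold change and alter only the shared spread.

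For MRL/lpr against MRL/+ the 10-mouse fold change of Rps21 was 2.02 ± 0.41 (limma adjusted p = 0.0089). With the processed signal the values were 1.15 (adjusted p = 0.012) in Fn14ko and 0.92 (adjusted p = 0.043) in MRL/lpr. Rps21 thus passed on both signals. It was measured by 1 probe, and its difference between Fn14ko and MRL/+ was 1.49 within Cy3 and 2.77 within Cy5.

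Rps27a, made as a fusion with ubiquitin, followed with a difference that was larger in Cy5. In the 10 mice it read 29.7 and 28.1 channel medians in MRL/lpr, 32.7, 24.9, 30.3 and 30.4 in Fn14ko and 19.9, 5.76, 21.8 and 10.8 in MRL/+. The MRL/+ mice in Cy5 were lowest, and those in Cy3 also read below all other mice. The log2 fold change of Rps27a in Fn14ko against MRL/+ was 1.20 ± 0.28 (limma adjusted p = 0.016), but 0.16 with the processed signal (adjusted p = 0.307).

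Rpl35 and Rpl31, proteins near the exit of the peptide tunnel, showed the same dye pattern. Rpl35 read 46.9 and 61.9 channel medians in MRL/lpr, 61.4, 68.3, 69.1 and 70.6 in Fn14ko and 39.5, 23.3, 38.5 and 30.8 in MRL/+. Its log2 fold change in Fn14ko against MRL/+ was 1.06 ± 0.18 (limma adjusted p = 0.0047), and 0.11 with the processed signal. Rpl31 read 12.6 and 13.7 in the Cy3 mice of MRL/+ but 4.65 and 5.25 in its Cy5 mice, against 14.0 to 16.9 in Fn14ko. Its difference was 0.93 ± 0.23 (adjusted p = 0.021), made of 0.32 within Cy3 and 1.54 within Cy5, and -0.17 with the processed signal. In the 12 mice its MRL/lpr level was highest on the weak array, at 7.64 and 11.5, where 1 of its 2 probes gave 3.24 against MRL/+ and the other 0.31.

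**Figure D4:**
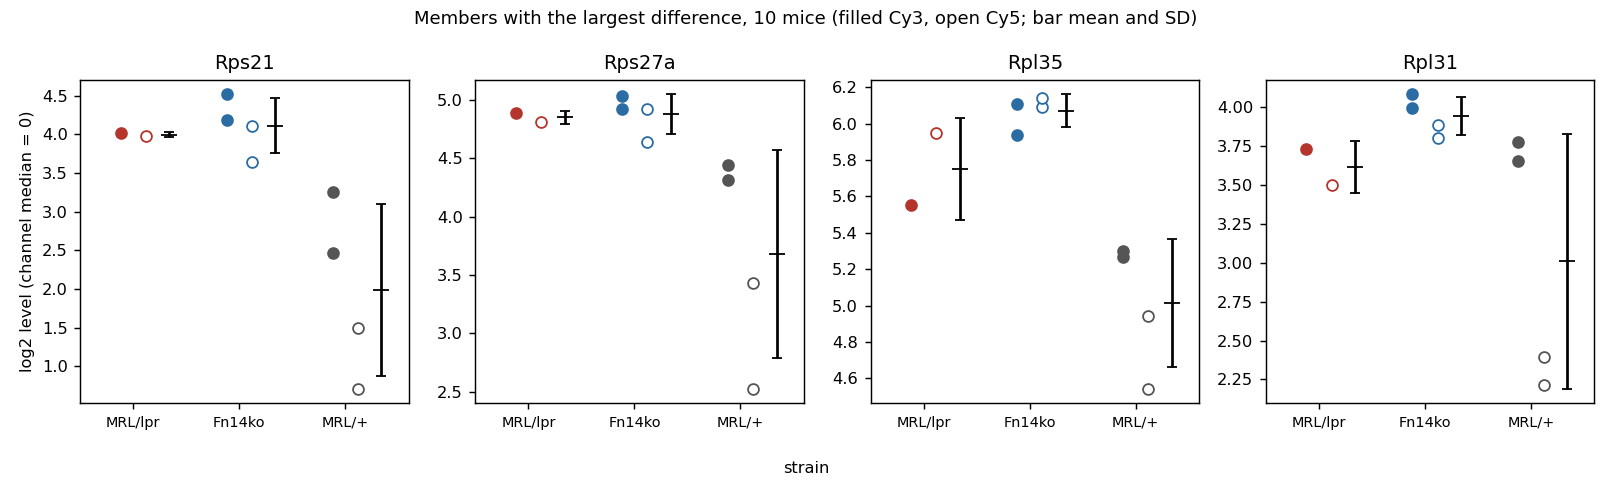
Log2 levels of Rps21, Rps27a, Rpl35 and Rpl31 in 10 mice, filled for Cy3 and open for Cy5, with mean and SD as bars. The MRL/+ mice in Cy5 sit lowest in each panel.

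Rps14 and Rpl27a completed the 6 largest rises in Fn14ko, at 0.76 ± 0.14 and 0.75 ± 0.14 (limma adjusted p = 0.0058 and 0.0076). The processed signal gave -0.05 and -0.01. In MRL/lpr against MRL/+, the 6 largest were Rps21, Rps27a, Rpl5, Rps4x, Rps28 and Rpl35. Rpl5, which carries 5S RNA into the large subunit, read 16.6 and 18.7 channel medians in MRL/lpr and 8.11, 5.73, 9.94 and 12.3 in MRL/+. Its log2 fold change was 1.02 (adjusted p = 0.024), and 0.57 with the processed signal (adjusted p = 0.019). The Rps4x value, 0.76, came from probes that differed in size: with the weak array's mice left out they gave -0.08 and 1.31. Those probe values were scaled with the spots kept in 12 mice, unlike the 0.76, so their signs cannot be set against it.

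The remaining named members follow by value. Rps6, the substrate of S6 kinases, stood at 0.45 ± 0.14 in Fn14ko against MRL/+ with 10 mice (limma adjusted p = 0.044) and at 0.22 with the processed signal. Of 10 fits that left out a further mouse, 0 called Rps6. Rpsa, also known as the laminin receptor, stood at 0.34 ± 0.15 (adjusted p = 0.123), and Fau, a fusion of a ubiquitin-like protein with a small subunit protein, at -0.05 ± 0.14. Rps19, a gene of Diamond-Blackfan anaemia, was the highest member in MRL/lpr against Fn14ko with 10 mice, at 0.88 ± 0.25 (limma adjusted p = 0.056). With the processed signal it stood at 1.00 (adjusted p = 0.028). In Fn14ko against MRL/+ it was the lowest member with 12 mice, at -0.50. Rps18 and Rpl41, the next lowest there, stood at -0.47 and -0.45. Rpl39 and Rps4l, among the highest in MRL/lpr with 12 mice, stood at 0.51 and 0.56 against MRL/+, with adjusted p of 0.177 and 0.258.

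Copies known from testis or muscle were dim. The muscle copy Rpl3l was well above background in 0 MRL/lpr, 2 Fn14ko and 2 MRL/+ mice, whereas Rpl3 stood at 0.23 ± 0.13 in Fn14ko against MRL/+ with 10 mice. The testis copy Rpl10l was well above background only on the weak array (2 mice) and Rpl39l in no mouse, so no fold change is given for them. Rpl10 stood at -0.05 ± 0.13. Rps27l, a paralogue of Rps27, was well above background in 2, 4 and 4 mice. It stood at -0.0019 ± 0.18 in Fn14ko against MRL/+, whereas Rps27 gave 0.41 ± 0.13 (limma adjusted p = 0.040). The probes named Rps27 all lie on chromosome 9, whereas the listed Rps27 start is on chromosome 3, so the value may be that of another copy. Of 10 fits that left out a further mouse, 3 called Rps27. Rpl30, valid in too few mice for the 12-mouse test, stood at 0.05 ± 0.17.

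Variation between mice was read in 2 ways, without a test. The median REV, the relative expression variability of the study's methods, was 17.3% for members and 32.3% for all genes in Fn14ko. For MRL/+ the values were 42.0% and 57.9%. For MRL/lpr, where the weak array enters, they were 84.4% and 104%. REV shrinks with the number of spots per gene, and 62 of the 82 members had more than 1 probe. The coefficient of variation, pooled over a gene's spots, has no such term. Its 12-mouse medians for members and all genes were 11.9% and 16.4% in Fn14ko. The medians were 29.6% and 29.5% in MRL/+, whereas MRL/lpr gave 58.5% and 54.1%. With the weak array left out and more genes tested, the coefficient was instead taken from values already averaged over a gene's probes. Averaging can lower it for genes with more than 1 probe. Medians on this formula were 9.20% and 17.6% in Fn14ko and are not comparable with the 12-mouse ones. They were then 16.1% and 26.2% in MRL/+, and 11.8% and 12.4% over the 2 MRL/lpr mice.

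Probes of a member often disagreed in direction. Of 53 members with more than 1 kept probe, with 12 mice, 28 had probes of opposite sign in Fn14ko against MRL/+, 23 in MRL/lpr against MRL/+ and 17 in MRL/lpr against Fn14ko. With the weak array's mice left out and the 12-mouse channel scaling kept, these counts were 28, 26 and 27. A probe's sign shifts with that scaling. The median gap between a member's highest and lowest probe was 0.50 (log2) in Fn14ko against MRL/+.

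Neighbouring parts of the translation machinery were read in the same fits. In Fn14ko against MRL/+ with 10 mice, where 10% of all genes were called higher and 11.1% lower, 8 of 78 mitochondrial ribosomal protein genes were higher and 2 lower, led by Mrps31 at 1.28 and Mrpl37 at -0.70. Of 20 elongation factors and other TOP genes, 5 were higher and 0 lower, with Naca, part of the nascent chain complex, at 1.32 and Eef1d at 0.79. Of 26 ribosome biogenesis genes 4 were higher, with Sbds, which frees the subunits for joining, at 0.85. Of 21 initiation and mTOR genes 2 were higher and 2 lower, among them the eIF4E kinase Mknk1 at -0.99 (limma adjusted p = 0.0033).

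In MRL/lpr against MRL/+ with 10 mice, Mknk1 stood at -1.39 and Eif4ebp1, the translation repressor held back by mTOR, at -1.07, with limma adjusted p of 0.0010 and 0.0025. In the same comparison 3 of 21 initiation and mTOR genes were lower and 0 higher, beside 9.61% and 6.11% of all genes. The elongation factor Eef1a2, the form used by mature neurons, was lower both with 12 mice, at -1.13 (adjusted p = 0.015), and with 10, at -1.04 (adjusted p = 0.026). In its list, 1 of 19 genes was lower and 1 higher (Btf3, at 1.31) with 12 mice. Over all genes, 9.17% were called there in either direction. With 10 mice 1 of 20 was lower and 0 higher, and the list median was 0.21. These 4 lists were read on the background-subtracted signal alone.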

How the data were processed

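Hippocampal RNA of 12 mice was measured on 6 Agilent 2-colour arrays of 60-base probes. The authors extracted spots with Feature Extraction 12.1.0.3 and deposited linear intensities per dye, with flags; probe positions are mm9 per the file headers. Here, the median background was subtracted from the mean foreground. Spots were kept if the foreground was at least 2 times background without an outlier flag in every mouse used. Each channel was divided by its median, spots and probes were averaged per gene, and limma 3.58.1 (R 4.3.3) was run on log2 values (dye as covariate, trend, Benjamini-Hochberg over all genes, threshold 0.05). The script was tested on simulated data. Members without a spot valid in 12 mice were read with no filter or in 10 mice. The members, lists and omission of the weak array were chosen with earlier results of these data known. Named were the P genes, Rpsa, Fau, Rps27a, Rps6, paralogues, and per comparison up to 6 called rises and falls (the 3 largest if fewer than 3 passed); other lists name up to 2 called per direction. Alternatives were the processed signal, normexp, no filter, quantile scaling, array or replicate as block, no dye term, single dyes, array weights, brightest probe, the methods' t-test and leaving out mice. Per the study's methods each sample is 1 mouse. The number of arrays limits precision.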

Additional observations from a re-analysis of the deposited data

Results flagged for a closer look

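Among 31 named members in 3 groups of 4 mice (93 groups), 3 held a mouse far from the other 3. Chance marks about 1 group in 20, and this count does not exceed that. The gap from the outlying mouse to its nearest neighbour was 0.834 of the group's range for Rpl10 in Fn14ko replicate 3, 0.86 for Rpl3 in MRL/+ replicate 2 and 0.86 for Rpl30 in Fn14ko replicate 2.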

How the results depend on the processing

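Leaving out the weak array gave 8 calls among the members in MRL/lpr against MRL/+ and 26 in Fn14ko against MRL/+, and moved the 3 medians to 0.23, -0.090 (MRL/lpr against Fn14ko) and 0.31. It also turned the sign, with a call, of Rpl5 (1.02), Rplp0 (0.63), Rps28 (0.75) and Rps4x (0.76; 0.57 with array weights) in MRL/lpr against MRL/+. With 12 mice, MRL/lpr against MRL/+ gave 4 calls with the processed signal, 1 with normexp, 3 with quantile scaling, 1 without a dye term, 3 with array weights and 3 with the methods' t-test, beside 13.5%, 10.8%, 5.07%, 8.44%, 16.4% and 15.8% of all genes. Array weights, whose estimation stopped short of its convergence tolerance, gave 1 call against Fn14ko (10.2% of all genes) and 17 in Fn14ko against MRL/+ (11 higher, 6 lower; 38.5% of all genes), with medians of 0.046 and 0.042 for MRL/lpr against MRL/+ and Fn14ko. In Fn14ko against MRL/+ the t-test gave 11 calls and the composite criterion 1, beside 16.8% and 5.95% of all genes. Without a filter the medians were -2.12 (MRL/lpr against Fn14ko) and 0.98 (Fn14ko against MRL/+). With the filter and 12 mice, the median in Fn14ko against MRL/+ was 0.29 within Cy3 and -0.16 within Cy5.

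With 10 mice, MRL/lpr against MRL/+ gave 16 calls with array as a random block, 0 within Cy3, 21 within Cy5 and 17 with the processed signal, beside 28.6%, 4.98%, 48.6% and 24.4% of all genes, with a median of -0.14 for the last. MRL/lpr against Fn14ko gave 2, 0, 1 and 8 calls in the same order and 2 with quantile scaling, beside 15.9%, 2.15%, 12.4%, 14.3% and 9.65%, with medians of -0.24 within Cy3 and 0.054 within Cy5. Fn14ko against MRL/+ gave 39 with array as a random block, 0 within Cy3, 21 within Cy5, 16 with quantile scaling (median 0.17) and 9 with the processed signal (median -0.030), beside 35.7%, 0%, 57.2%, 21.1% and 21.0%. These settings were chosen after seeing the data.

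Leaving out 1 of 12 mice gave 0 to 32 calls in MRL/lpr against MRL/+ (32 without MRL/lpr replicate 2, 21 without replicate 1, beside 39.1% and 37.6% of all genes), 0 to 42 against Fn14ko (42 and 25 without the same mice, beside 48.5% and 40.1%) and 0 to 1 in Fn14ko against MRL/+. Those fits leave the weak array with more weight. Leaving out 1 of 10 mice gave 0 to 8, 0 to 1 and 6 to 23 calls, beside 4.86% to 18.9%, 1.69% to 9.87% and 6.34% to 22.3% of all genes, and medians of 0.085 to 0.35, -0.21 to 0.081 and 0.28 to 0.36. With 2 MRL/lpr mice, leaving out 1 assumes that the other varies like the other strains.

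Deviations of same-numbered mice correlated from -0.40 to 0.50. Replicate number goes with dye and, in MRL/lpr, with the weak array, so these values cannot tell whether the numbers pair the mice. A replicate block gave 0 member calls in each comparison, as the main fit did. The cause of these moves was not tested. Few arrays, and dim spots on the weak one, limit the precision.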
